A study of Mus musculus with 568 samples.

Results

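The genes described are 8 genes of homologous recombination and its resolution in meiosis: Dmc1, Rad51ap2, Spata22, Meiob, Msh4, Msh5, Brca2 and Mlh3. The set was given by name, and its rule uses no measured value, but members and lists were chosen with earlier results of these data known. The first 6 are known mainly from meiosis and are called the meiosis-only genes, whereas Brca2 and Mlh3 also act in dividing body cells. All 8 were among the 15718 genes of the single-cell table, where Meiob is listed under its older name 4930528F23Rik. Of the 16335 genes of the bulk table, 6 of the 8 were matched, and Rad51ap2 and Spata22 have no bulk value here.

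The study followed X-chromosome inactivation and reactivation while mouse embryonic stem cells (ESCs) were turned into germ cells in culture. All cells came from XRep, a female hybrid 129S1/SvImJ and CAST/EiJ line that carries a GFP reporter on the 129S1/SvImJ X chromosome, a tdTomato reporter on the CAST/EiJ X chromosome, a Tsix truncation that directs inactivation to the GFP-marked X, and doxycycline-inducible Prdm14, Blimp1 and Tfap2c. Bulk RNA was sequenced from ESCs, from epiblast-like cells (EpiLCs) after 4 days, and from primordial germ cell-like cells (PGCLCs) after 5 days with doxycycline, sorted as SSEA1+ CD61+ and as XGFP+ (GFP-marked X active) or XGFP- (GFP-marked X silenced), with 4 libraries in each of the 4 groups. Single cells came from reconstituted ovaries (rOvaries), in which sorted PGCLCs were cultured for 6 days with somatic cells. These were E13.5 female gonadal and mesonephric cells of CD1/ICR mice, depleted of SSEA1+ and CD31+ cells. Of the sorted rOvary populations, XGFP+ constitutive cells descended from XGFP+ PGCLCs, and XGFPhigh, XGFPintermediate and XGFPlow cells descended from XGFP- PGCLCs and differed in GFP level. The bulk libraries came from 2 clones of 1 engineered line, which the library names do not tell apart, and the methods describe the libraries of a clone as technical replicates, while they are called biological elsewhere in the study. If they are technical, n = 4 overstates the number of independent samples, and the SDs and p-values below measure in part technical spread and are too small. ESCs and EpiLCs were not sorted, and germ cell induction was driven by transgenes. Bulk libraries held 29.8 to 46.5 M reads on genes. Nanos3, an early germ cell gene, was at 608 ± 59.2 normalised read counts in XGFP+ and 381.7 ± 45.6 in XGFP- PGCLCs against 10.04 ± 4.87 in EpiLCs (SD, n = 4), and Fgf5, an EpiLC gene, was at 3551 ± 350.9 in EpiLCs. Of 6 measured germ cell markers, 4 had higher means in both PGCLC groups than in EpiLCs, and 2 had lower ones, Ddx4 (EpiLCs 532, XGFP+ PGCLCs 461, XGFP- PGCLCs 223.6) and Mael (469, 181.3 and 35.6 in that order).

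Meiotic recombination starts from programmed DNA double-strand breaks whose ends are cut back to single strands. Recombinases, among them the meiotic DMC1, are loaded on these strands by BRCA2 and search for the homologous chromosome, MEIOB and SPATA22 bind the single-stranded DNA together with RPA, and RAD51AP2 is a germline recombination protein. The MSH4-MSH5 pair then holds recombination intermediates, and MLH3 acts in the resolution of a part of them as crossovers. In the female these steps take place in the fetal ovary, shortly after germ cells enter meiosis.

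Promoter windows of 3 meiosis-only genes are shown because they share an E2F-type motif, GGCGGGAA, that is printed in capitals. The windows run from 250 bases before to 50 bases after the RefSeq start on GRCm38.p6, 5′ to 3′ on the strand of the gene. The motif was searched on both strands, and Msh5 also held the motif CNCCTCAG, a sequence known to be bound by STRA8-MEIOSIN, in reverse complement and in capitals too.
Rad51ap2 (chr12:11455805-11456104, plus strand): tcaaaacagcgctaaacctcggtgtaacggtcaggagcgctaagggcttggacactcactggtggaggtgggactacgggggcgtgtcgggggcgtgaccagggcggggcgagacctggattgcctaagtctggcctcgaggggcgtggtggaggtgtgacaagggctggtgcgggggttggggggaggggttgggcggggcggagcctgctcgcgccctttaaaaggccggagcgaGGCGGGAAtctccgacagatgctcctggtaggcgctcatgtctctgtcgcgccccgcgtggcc
Spata22 (chr11:73329491-73329790, plus strand): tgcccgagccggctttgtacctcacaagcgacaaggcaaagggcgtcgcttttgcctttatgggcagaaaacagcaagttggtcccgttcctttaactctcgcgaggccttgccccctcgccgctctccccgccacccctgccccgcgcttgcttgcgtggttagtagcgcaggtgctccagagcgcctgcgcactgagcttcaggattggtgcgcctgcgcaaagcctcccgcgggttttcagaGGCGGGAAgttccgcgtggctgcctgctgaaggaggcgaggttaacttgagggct
Msh5 (chr17:35046573-35046872, minus strand): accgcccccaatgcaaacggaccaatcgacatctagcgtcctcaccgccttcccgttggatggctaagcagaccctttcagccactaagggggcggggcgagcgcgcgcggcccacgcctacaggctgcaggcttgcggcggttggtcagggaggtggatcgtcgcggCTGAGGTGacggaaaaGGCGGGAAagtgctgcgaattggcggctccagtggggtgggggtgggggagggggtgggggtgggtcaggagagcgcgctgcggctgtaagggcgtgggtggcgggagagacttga
Of the 7 genes with a window, 3 held GGCGGGAA, against 2.19% of 32851 windows of the same length. CNCCTCAG was found in 1 of the 7, against 7.94% of all windows, and the E-box CACGTG was found in 0 of the 7, against 7.15% of all windows. Counted from the start base as position 0, GGCGGGAA lay at -13 to -6 in Rad51ap2, at -5 to 2 in Spata22 and at -66 to -59 in Msh5. These 3 windows held 26, 25 and 27 CpG sites, against a median of 7 over all windows. Windows without GGCGGGAA held 25 (Brca2), 22 and 21 (2 windows of Mlh3), 18 (Dmc1) and 6 (Msh4). The windows of the background were not matched for CpG content, and those of the general repair genes were not counted apart. A match of letters is a description of the sequence and was not tested for binding.

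Strand exchange was followed first. Dmc1 (chr15:79561497-79605109, minus strand, mm10), the meiotic recombinase, was already measured before germ cell induction. Its normalised read counts, which are reads divided by the authors' size factor of the library, were 390.6, 518.8, 280.7 and 313.4 in ESCs and 453.9, 525.1, 398.4 and 351.5 in EpiLCs. They were 297.4, 415.5, 223.98 and 328.7 in XGFP+ PGCLCs and 195.8, 224.5, 174.1 and 203.05 in XGFP- PGCLCs. The XGFP- PGCLC libraries lay below every EpiLC library, and the 4 XGFP+ PGCLC libraries overlapped both EpiLC and XGFP- PGCLC libraries. Dmc1 was lower in XGFP- PGCLCs than in EpiLCs by a log2 fold change of -1.10 (SE 0.189, limma adjusted p = 3.33e-05). Between XGFP- and XGFP+ PGCLCs it differed by -0.63 (adjusted p = 0.00982), which did not pass the threshold of 0.001, but with the replicate number as a block, the adjusted p was 0.000337.

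Brca2 (chr5:150522630-150570329, plus strand), the loader of recombinases, was the most abundant of the measured genes per kilobase of exon in every bulk group. Its normalised read counts were 6127, 7593, 6069 and 7135 in ESCs, 5263, 5865, 5379 and 5491 in EpiLCs, 6805, 7326, 6855 and 7943 in XGFP+ PGCLCs, and 7219, 7439, 7232 and 7008 in XGFP- PGCLCs. The EpiLC libraries were the lowest, with no overlap with any other group, and the PGCLC groups overlapped each other. Brca2 was higher than in EpiLCs by a log2 fold change of 0.39 in XGFP+ PGCLCs (adjusted p = 5.03e-05) and in XGFP- PGCLCs (adjusted p = 4.42e-05), and between the PGCLC groups the difference was 0.00 (SE 0.0695). The EpiLC libraries were lower than those of ESCs by -0.29, at an adjusted p of 0.00134 that missed the threshold. It passed without ESC replicate 1 (adjusted p = 0.000695) or 3 (0.000461), with DESeq2 (3.00e-04) and with the replicate number as a block (2.24e-04). Between EpiLCs and ESCs, deviations from the group means correlated weakly for equal numbers, at 0.041, 0.108, 0.110 and 0.056. Against other numbers the means were -0.013, -0.038, -0.034 and -0.019.

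The single-stranded DNA binding gene Meiob (chr17:24804289-24839788, plus strand) showed the largest difference of the 6. Its normalised read counts were 3.37, 14.8, 7.36 and 1.13 in ESCs and 5.54, 5.93, 3.97 and 4.94 in EpiLCs. They reached 60.8, 96.4, 81.4 and 118.2 in XGFP+ PGCLCs and 116.99, 137.2, 84.6 and 169.03 in XGFP- PGCLCs. Every PGCLC library lay above every ESC and EpiLC library, while the PGCLC groups overlapped. On the log2(value + 1) scale Meiob was higher than in EpiLCs by 3.86 in XGFP+ PGCLCs (SE 0.433, adjusted p = 2.02e-07) and by 4.36 in XGFP- PGCLCs (adjusted p = 3.18e-08), corresponding to 14.5-fold and 20.5-fold. The difference between the PGCLC groups was 0.50 (adjusted p = 0.359, and 0.343 with the replicate number as a block), and XGFP- was the higher one in 4 of 4 same-numbered pairs.

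Of the MSH4-MSH5 pair, only Msh5 passed the threshold in any comparison. Msh5 (chr17:35028605-35046745, minus strand) had normalised read counts of 29.2, 55.3, 34.7 and 31.7 in ESCs, 44.4, 71.2, 45.7 and 37.5 in EpiLCs, 88.9, 97.6, 106.3 and 120.01 in XGFP+ PGCLCs, and 181.1, 208.3, 183.7 and 142.2 in XGFP- PGCLCs. ESC and EpiLC libraries overlapped, XGFP+ PGCLC libraries lay above both, and XGFP- PGCLC libraries lay above all the others. Msh5 was higher than in EpiLCs by 1.07 in XGFP+ PGCLCs (SE 0.215, adjusted p = 0.000191) and by 1.85 in XGFP- PGCLCs (adjusted p = 2.55e-07). Without XGFP+ PGCLC replicate 4 or EpiLC replicate 4 the first of these gave an adjusted p of 0.00103. Between the PGCLC groups Msh5 differed by 0.78 (adjusted p = 0.00573), which did not pass the threshold, although the libraries did not overlap, and it was called by DESeq2 (adjusted p = 0.000346) and not by edgeR.

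Msh4 (chr3:153857149-153906138, minus strand), the partner of Msh5, was at 61.7, 63.2, 66.2 and 70.1 in ESCs, 70.5, 53.4, 68.6 and 40.5 in EpiLCs, 48.97, 75.1, 57.4 and 85.98 in XGFP+ PGCLCs and 39.9, 34.5, 58.7 and 39.2 in XGFP- PGCLCs. The libraries of each PGCLC group overlapped those of EpiLCs and of the other PGCLC group. Its largest difference was -0.62, XGFP- minus XGFP+ PGCLCs (SE 0.217, adjusted p = 0.0250), and it passed the threshold in none of the 5 comparisons. Per kilobase, Msh4 was at 6.25 normalised reads and Msh5 at 32.4 in XGFP- PGCLCs, on the same scale where Dmc1 was at 81.9 and Brca2 at 530.

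Mlh3 (chr12:85234520-85270599, minus strand), which acts in crossover resolution and mismatch repair, was highest in ESCs, at 2189, 2163, 2310 and 2483, and was at 1491, 1535, 1440 and 1489 in EpiLCs, 1335, 1408, 1396 and 1447 in XGFP+ PGCLCs and 1196, 1169, 1363 and 1196 in XGFP- PGCLCs. Every ESC library lay above all others, and XGFP- PGCLC replicate 3 stood apart from its group. Mlh3 fell by 0.62 on the log2 scale from ESCs to EpiLCs (SE 0.0607, adjusted p = 4.41e-08) and fell by 0.28 from EpiLCs to XGFP- PGCLCs (adjusted p = 0.000426). This second call was lost when any of 3 XGFP- PGCLC libraries (replicates 1, 2 and 4) or any of 3 EpiLC libraries (the same numbers) was left out, with adjusted p-values between 0.00120 and 0.00235, and it was lost in the fit of the 8 libraries alone (adjusted p = 0.00141).

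**Figure D1:**
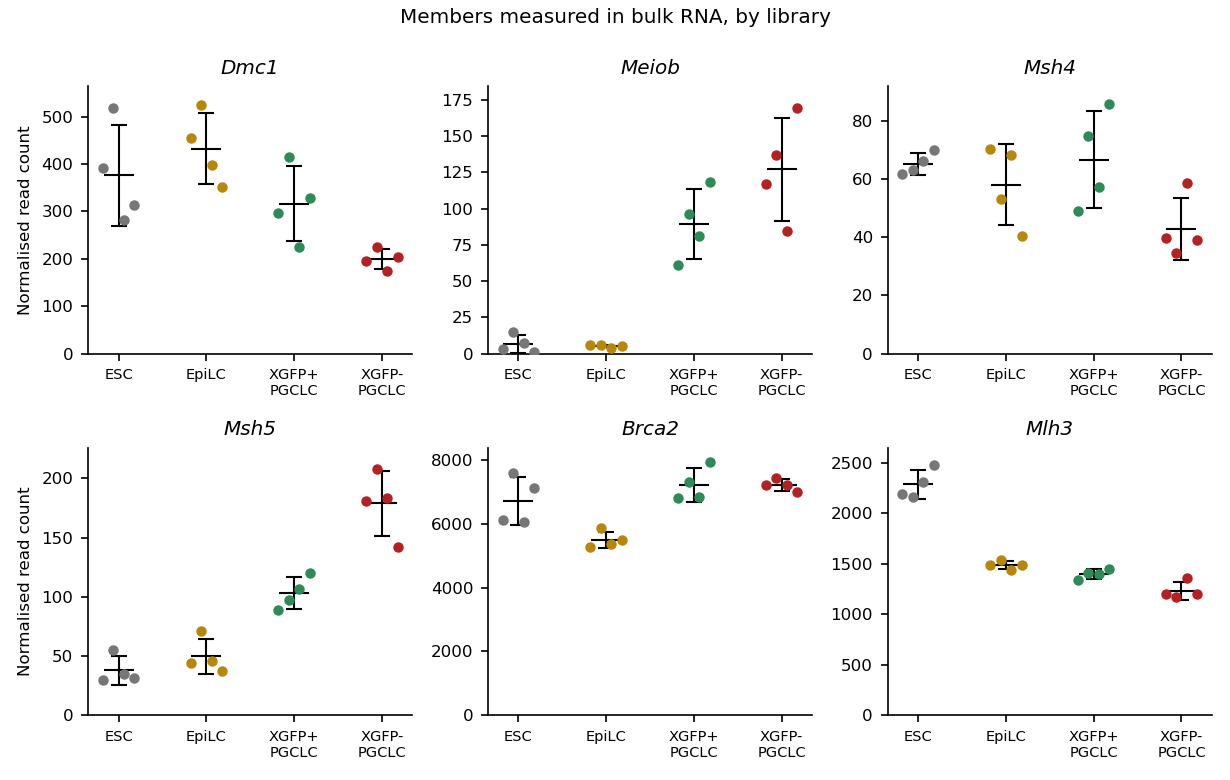
Normalised read counts of the 6 measured genes in the 16 bulk libraries, with the group mean and SD as a bar. Meiob lies at or below 14.8 in every ESC and EpiLC library and at or above 60.8 in every PGCLC library, and the ESC libraries of Mlh3 lie above those of all other groups.

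Called members were counted over the 6 measured genes at an adjusted p under 0.001. From ESCs to EpiLCs, 0 of 6 rose and 1 fell (24.9% of the 16281 tested genes rose and 22.9% fell). In XGFP+ PGCLCs against EpiLCs, 3 rose and 0 fell (27.8% and 29.5% of all genes). XGFP- PGCLCs against EpiLCs gave 3 higher and 2 lower (29.9% and 31.9%). XGFP- against XGFP+ PGCLCs gave 0 higher and 0 lower (11.3% and 12.5%), with 4 of the 6 at an unadjusted p under 0.05, 0 called by edgeR and 1 by DESeq2. With the replicate number as a block, which pairs the libraries of these PGCLC groups, Dmc1 was called lower. The 2 PGCLC comparisons share the EpiLC libraries and the last one shares PGCLC libraries with both. Against ESCs, XGFP+ PGCLCs had 2 higher, Meiob by 3.89 and Msh5 by 1.46, and 1 lower, Mlh3 by -0.71 (25% and 24.9% of all genes). In bulk libraries fewer cells that use a gene and less RNA per cell cannot be told apart.

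The 13 other meiotic recombination genes, of which 12 were tested, moved in both directions. Over all tested genes, 27.8% rose and 29.5% fell in XGFP+ PGCLCs against EpiLCs, and 29.9% and 31.9% in XGFP- PGCLCs. In XGFP- against XGFP+ PGCLCs the shares were 11.3% and 12.5%. In XGFP+ PGCLCs against EpiLCs 4 rose and 5 fell (median log2 fold change 0.01), with 4930432K21Rik (Brme1), a BRCA2-associated meiotic gene, at 2.09 and Prr19 at -2.27. In XGFP- PGCLCs against EpiLCs 4 rose and 7 fell, with a median log2 fold change of -0.86 against -0.03 over all genes. Hfm1, a helicase for crossover formation, rose by 3.50, Prr19, a crossover regulator, fell by 3.01, and Hsf2bp, which binds BRCA2 in meiosis, fell by 2.12. Tex15 and Tex11, both needed for meiotic recombination in the male germline, fell by 2.50 and 1.23. Both were also lower in XGFP+ PGCLCs than in EpiLCs. Mean counts in EpiLCs, XGFP+ and XGFP- PGCLCs were 4688, 1344 and 825 for Tex15 and 1241, 524 and 522 for Tex11, which is X-linked. Mcmdc2, needed for meiotic repair, rose by 0.90, after 1.19 in XGFP+ PGCLCs. XGFP- against XGFP+ PGCLCs had 1 called higher, Hfm1 at 1.62, and 3 called lower, Hsf2bp at -2.05, AI481877 (Shoc1) at -2.62 and Ccnb1ip1, a crossover regulator, at -0.81, among 12 genes. Psmc3ip and Mnd1, the accessory pair of DMC1, were at 0.17 and -0.29 in that comparison, and neither passed the test.

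The 33 general repair genes of homologous recombination and mismatch repair were all tested. In XGFP+ PGCLCs against EpiLCs 12 rose and 6 fell (median 0.13), against 27.8% and 29.5% of all genes. In XGFP- PGCLCs 15 rose and 4 fell (median 0.21), against 29.9% and 31.9% of all genes. Brca1 rose by 1.17 and 1.22 and Palb2, which joins BRCA1 to BRCA2, by 0.88 and 0.91, in the 2 comparisons. Rad51c, a recombination gene, rose by 1.73 in XGFP+ PGCLCs, Rad51b rose by 1.87 in XGFP- PGCLCs, and Rad51d fell by 1.36 and 1.57. Between the PGCLC groups, 1 of 33 rose, Xrcc2 by 0.71, and 1 fell (11.3% and 12.5% of all genes). Palb2 and Brca1 had both been lower in EpiLCs than in ESCs, by -0.52 and -0.91. In that first step 4 other meiotic genes rose and 2 fell (median 0.41, Prr19 at 2.52 and Mcmdc2 at -1.16), and 2 general repair genes rose and 11 fell (median -0.08, Rad51d at 0.71). Over all genes, 24.9% rose and 22.9% fell in that step. XGFP+ PGCLCs against ESCs gave 4 higher and 2 lower for the other meiotic genes (Hfm1 at 2.72 and Ccnb1ip1 at -1.19) and 8 higher and 5 lower for general repair (Rad51c at 0.96 and Rad51d at -0.66). Over all genes, 25% were higher and 24.9% lower.

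**Figure D2:**
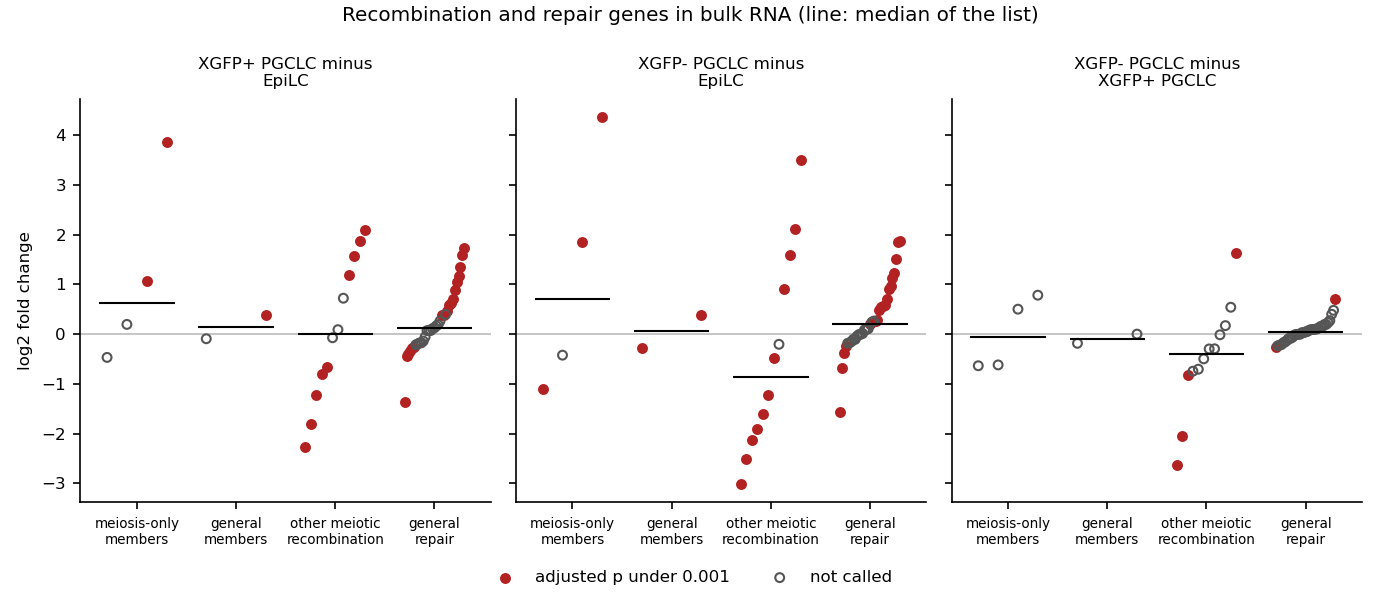
Log2 fold changes of the meiosis-only genes, the general genes and the 2 further lists in the 3 PGCLC comparisons, filled where the adjusted p was under 0.001, with a line at the median of each list. The general repair genes lie close to 0 in XGFP- minus XGFP+ PGCLCs, where 31 of 33 were not called, and the other meiotic recombination genes spread from -2.62 to 1.62. Over all genes, 11.3% were called higher and 12.5% lower in that comparison.

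In the single-cell table, 552 wells were listed, and 401 rOvary germ cells were kept after filters on genes, reads, mitochondrial reads and Dazl. XGFP+ constitutive cells were 76 of them (18.95%) and XGFPlow cells 91 (22.7%). XGFPhigh cells were 29.4%, with 14 kept cells on sequencing lane 2 and 26, 25, 26 and 27 on lane 3, and XGFPintermediate cells were 28.9%, with 13 on lane 2 and 27, 28, 28 and 20 on lane 3. In the order constitutive, high, intermediate and low, median depths were 0.358, 0.636, 0.645 and 0.638 M reads. A gene was called detected in a cell at 5 or more reads. The values are read counts without molecular identifiers, so that the exact binomial 95% intervals below cover counting error only, and since each sorted population is 1 sample, no test was made between them. In 24 ESC wells (median 1.10 M reads) the same shares were measured as background, and 10 empty wells held 0 reads of every gene of the set. Because median depth was higher in the ESC wells, 5 reads were a smaller share of their reads, and a gene was detected more easily in them. Dazl, used in the filter, was detected in 100% of cells and Stra8 in 90.8 to 98.9%, and the gonadal somatic and mesonephric markers were each detected in at most 8.47% of cells of any rOvary population. Of the endothelial and blood markers, Pecam1, which early germ cells and ESCs also use, was detected in 75%, 80.5%, 43.1% and 42.9% of the 4 populations and in 95.8% of ESC wells, whereas Kdr, Cdh5 and Ptprc were each in at most 2.54% of any rOvary population.

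**Figure D3:**
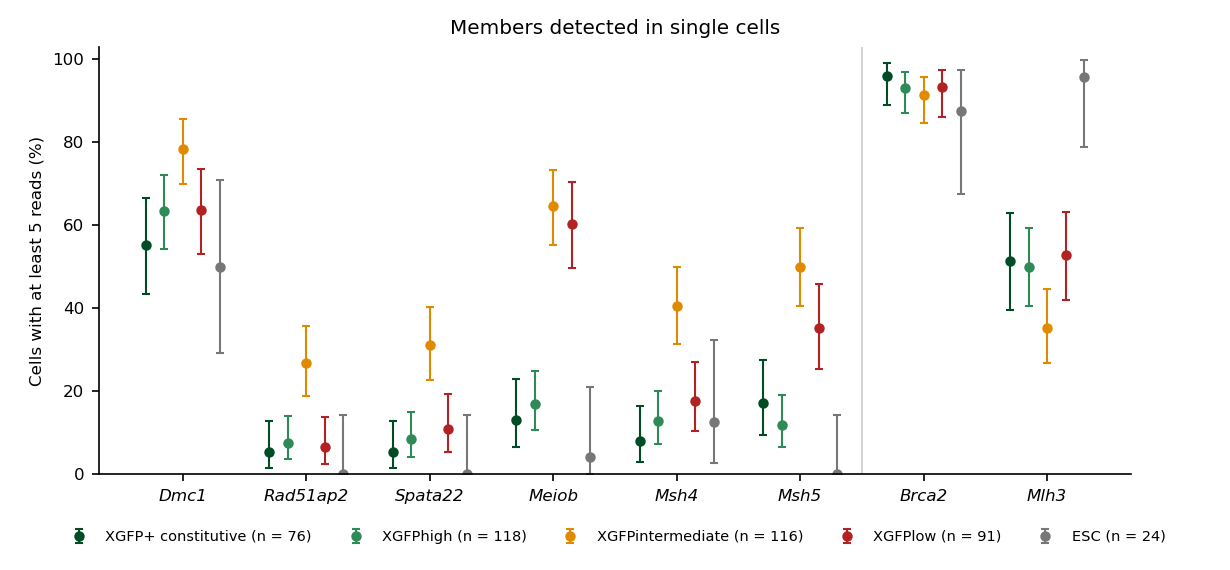
Share of cells with at least 5 reads of each gene in the 4 rOvary populations and in ESC wells, with exact binomial 95% intervals. With index sets pooled, XGFPintermediate cells have the highest share for each of the 6 meiosis-only genes, and Brca2 lies above 87% in every population.

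The recombinase gene Dmc1 was found in 55.3% (43.4 to 66.7) of XGFP+ constitutive, 63.6% (54.2 to 72.2) of XGFPhigh, 78.4% (69.9 to 85.5) of XGFPintermediate and 63.7% (52.99 to 73.6) of XGFPlow cells. ESC wells gave 50.0% (29.1 to 70.9), at a median of 13.6 RPM (reads scaled to a fixed total per cell) in wells with the gene, against 31.9 to 82.5 in the rOvary populations. The ESC interval overlapped that of every rOvary population, and that of XGFPintermediate cells at its edge. By index set, described below, Dmc1 in lane 2 was in 57.1% of XGFPhigh, 30.8% of XGFPintermediate and 41.7% of XGFPlow cells. In lane 3 the sets of these populations gave 59.3 to 72%, 80 to 89.3% and 52.9 to 76.2%.

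Rad51ap2 was found in 5.26% (1.45 to 12.9) of XGFP+ constitutive, 7.63% (3.55 to 13.99) of XGFPhigh, 26.7% (18.9 to 35.7) of XGFPintermediate and 6.59% (2.46 to 13.8) of XGFPlow cells, and in 0 of 24 ESC wells, which allows a share of up to 12.5% by 3 counts of the total and 14.2% by the exact interval. Spata22, the partner of Meiob, was found in 5.26%, 8.47%, 31.03% and 10.99% of the populations in the same sequence and in 0 of 24 ESC wells. Spata22 overlaps Gm49340 on the same strand, which neither table lists. The intervals of pooled XGFPintermediate cells did not overlap those of any other population for either gene, but index sets, described below, varied. XGFPintermediate shares of Rad51ap2 were 0% in lane 2 and 44.4%, 32.1%, 10.7% and 35% in lane 3. For Spata22 they were 7.69% in lane 2 and 44.4%, 46.4%, 10.7% and 35% in lane 3. Single XGFPhigh and XGFPlow sets reached 12% and 15.8% for Rad51ap2 and 20% and 23.5% for Spata22. In cells where it was detected, Rad51ap2 had a median of 275.6 RPM in XGFPintermediate and 1227 in XGFPhigh cells, where 9 cells held it.

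Meiob differed from these. It was found in 13.2% (6.49 to 22.9) of XGFP+ constitutive and 16.9% (10.7 to 24.96) of XGFPhigh cells, and in 64.7% (55.2 to 73.3) of XGFPintermediate and 60.4% (49.6 to 70.5) of XGFPlow cells, against 4.17% of ESC wells. XGFPlow cells thus held Meiob nearly as often as XGFPintermediate cells, whereas they held Spata22, its binding partner, in 10.99%. Msh5 lay between, at 17.1%, 11.9%, 50.0% and 35.2% in the same order, with 0 of 24 ESC wells. Msh4 was found in 7.89%, 12.7%, 40.5% and 17.6%, against 12.5% (2.66 to 32.4) of ESC wells. The XGFPintermediate interval of Msh4 (31.5 to 50.03) lay above those of the 3 other populations and overlapped that of the few ESC wells. By index set, Msh4 was in 7.69% of XGFPintermediate and 33.3% of XGFPlow cells in lane 2. In lane 3 the sets gave 32.1 to 53.6% and 10.5 to 22.7%.

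Brca2 was detected in 96.1%, 93.2%, 91.4% and 93.4% of the 4 populations and 87.5% of ESC wells, so that its share had little room to differ. Its mean level was 111.7, 95.1, 190.8 and 112.1 RPM in the 4 populations and 48.1 RPM in ESC wells. It was highest in XGFPintermediate cells, like the pooled shares of the 6. Mlh3 was detected in 51.3%, 50.0%, 35.3% (26.7 to 44.8) and 52.7% of cells, and in 95.8% of ESC wells (1.10 M reads). The lowest share of Mlh3 was that of XGFPintermediate cells, whose interval overlapped those of the 3 other populations, which began at 39.6, 40.7 and 42.001%. Thinned to 0.33 M reads per cell, with 24, 5, 5 and 6 cells too shallow left out, Mlh3 was in 50.0%, 38.9%, 27.03% and 45.9%, and Meiob was in 13.5%, 14.2%, 55.9% and 55.3%.

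By the median difference in detected share between XGFPintermediate and XGFPhigh cells, the 6 meiosis-only genes differed by 25.2 percentage points, the 13 other meiotic recombination genes by 9.26 and the 33 general repair genes by -5.35. The differences ran from 14.9 to 47.7 for the 6 genes, from -18.6 to 43.7 for the second list and from -22.6 to 12.7 for the third. The range of the 6 thus overlapped that of the second list and not that of the third. The lists did not start level, with median shares in XGFPhigh cells of 12.3%, 69.5% and 84.7%. Many general repair genes thus had little room to rise, and the differences cannot be compared between lists as changes in level.

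Whether the 6 genes were found in the same cells was then counted. At least 3 of the 6 were found in 6.58% (2.17 to 14.7) of XGFP+ constitutive, 8.47% (4.14 to 15.0) of XGFPhigh, 50.0% (40.6 to 59.4) of XGFPintermediate and 28.6% (19.6 to 38.999) of XGFPlow cells, and in 0 of 24 ESC wells. After thinning to 0.33 M reads the shares were 7.69%, 7.08%, 39.6% and 18.8%. All 6 were found in 0, 6, 21 and 1 cells, thus in 28 cells in all. Of the 10 XGFPhigh cells with at least 3 of the genes, 6 held all 6.

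These shares varied between index sets, which are wells of one sequencing lane sharing a block of library index numbers in their sample titles. XGFPintermediate cells had at least 3 genes in 66.7%, 60.7%, 42.9% and 50.0% of the 4 sets of lane 3, but in 7.69% (1 of 13 cells) of the set of lane 2. XGFPlow cells in the lane 2 set had 41.7% (5 of 12 cells), against 21.1 to 33.3% in lane 3. The order of the 2 populations in the lane 2 set was thus opposite to that in lane 3; labels were used as given, and whether they were exchanged in that set was not tested. Without the lane 2 set, the XGFPhigh, XGFPintermediate and XGFPlow shares were 8.65%, 55.3% and 26.6%. The XGFP+ constitutive cells used 1 index set of lane 2 alone, so that population and index set cannot be told apart, and they had lower depth.

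**Figure D4:**
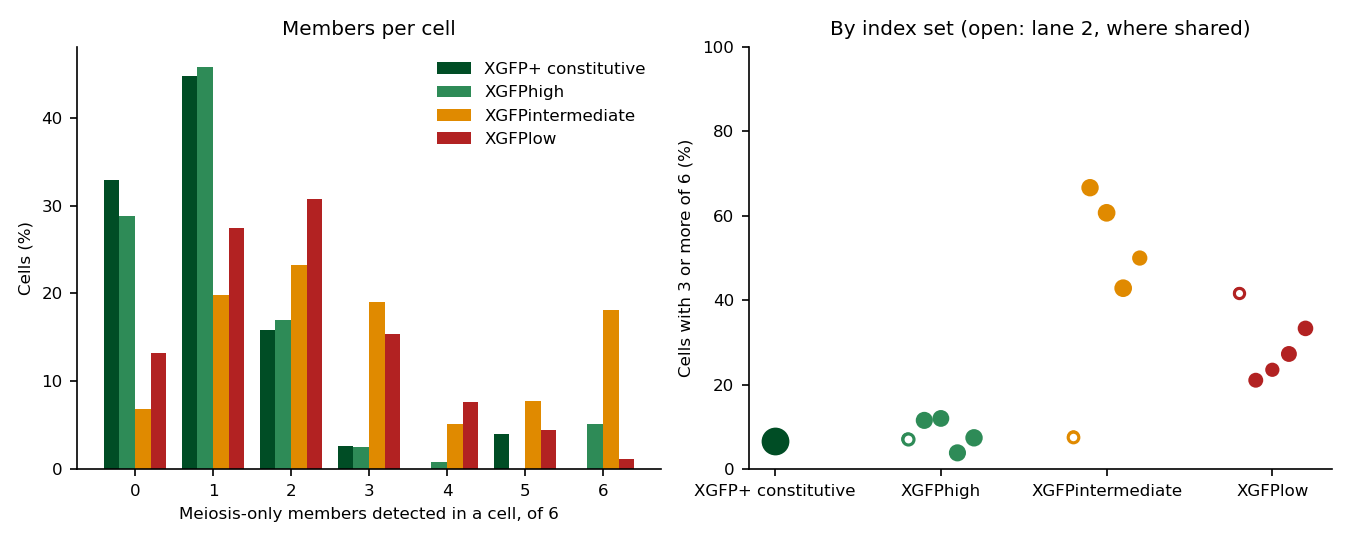
Left, share of cells by the number of meiosis-only genes detected, in each population. Right, share of cells with at least 3 in each index set, with the area of a point scaled to its number of cells and the shared lane 2 set drawn open; the open XGFPintermediate point at 7.69% lies below the 4 others, at 42.9 to 66.7%.

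The order in which genes were found is described over the 401 cells, and it was not tested as a sequence in time. As background, 41.7% of the 24 ESC wells held 1 of the 6 genes and 12.5% held 2. Dmc1 was also detected in ESC wells, so that its detection alone did not set a cell apart from them. In cells with a single gene of the 6 (33.9% of the cells), that gene was Dmc1 in 74.3%, Meiob in 20 cells, Msh5 in 11, Spata22 in 2, Rad51ap2 in 1 and Msh4 in 1. Of 87 cells with 2 genes, 69 held Dmc1, 49 held Meiob, 34 held Msh5 and 1 held Rad51ap2. The populations differed in this: in cells with 1 or 2 genes, Dmc1 and Meiob were held by 80.4% and 10.9% in XGFP+ constitutive, 87.8% and 16.2% in XGFPhigh, 68% and 44% in XGFPintermediate and 64.2% and 56.6% in XGFPlow cells. With 3 genes, 36 of 41 cells held Meiob and 3 held Rad51ap2. Of the 50 cells with Rad51ap2, 49 held Dmc1, 47 held Meiob and 39 held Spata22, whereas 18.4% of the cells with Dmc1 held Rad51ap2. Since cells with few reads show fewer genes, depth is given beside this. The rank correlation of the number of genes with the reads of a cell was 0.22 over 401 cells. By population it was 0.195 in XGFP+ constitutive, 0.0996 in XGFPhigh, -0.06 in XGFPintermediate and 0.236 in XGFPlow cells. Spearman correlations over the 401 cells pool 4 populations that differ in shares and depth. Among the 6 genes they were 0.38 for Dmc1 with Msh5 at the lowest and 0.68 for Rad51ap2 with Spata22 at the highest. With Brca2 the pooled correlations of the 6 were 0.26 to 0.36, and with Mlh3 they were -0.12 to -0.03. Within populations, pairs of the 6 genes ran from 0.07 to 0.48 in XGFP+ constitutive and from 0.23 to 0.55 in XGFPhigh cells. They ran from 0.46 to 0.84 in XGFPintermediate and from 0.05 to 0.41 in XGFPlow cells.

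**Figure D5:**
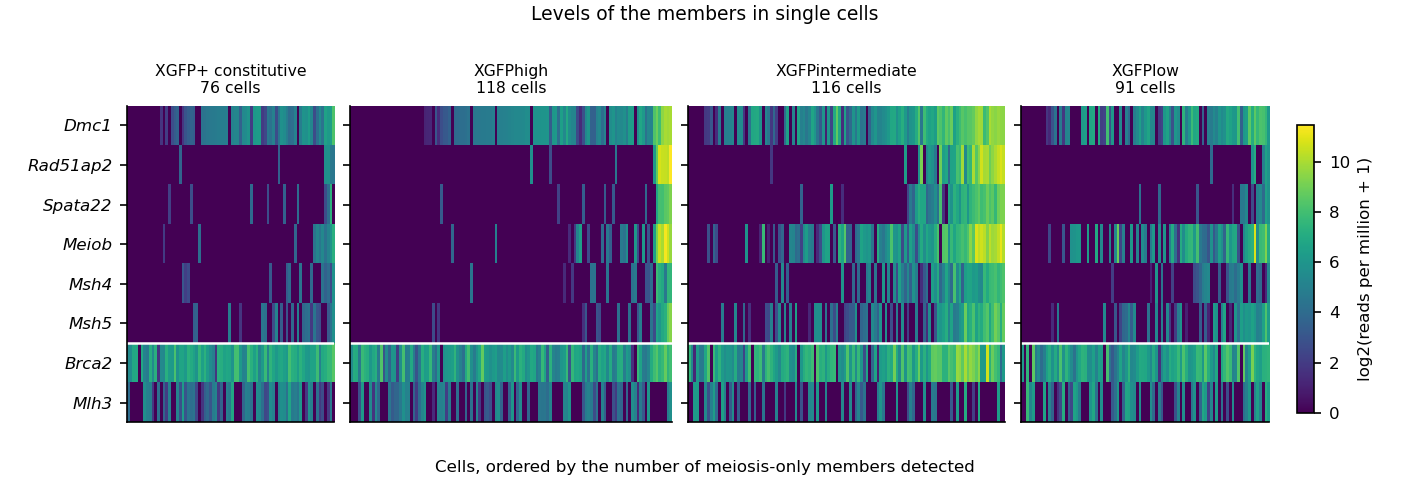
Levels of the 8 genes in each of the 401 cells, as log2(RPM + 1), with cells of a population ordered by the number of meiosis-only genes detected. The columns at the right of XGFPintermediate hold all 6 genes at high level, while Brca2 is seen along the whole row and Mlh3 is scattered.

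Within XGFPintermediate cells, levels were compared between 8 cells with 0, 50 with 1 or 2, 37 with 3 to 5 and 21 with all 6 genes detected. These groups were defined by the genes themselves, so the levels of the 6 are a description. Medians of Dmc1 were 0, 26.8, 65.8 and 437.6 RPM and those of Meiob were 0, 1.49, 59.4 and 684. Rad51ap2 was at a median of 0 up to 5 genes and at 681.1 with all 6, and Spata22 was at 232.2 with all 6. Brca2, not used to form the groups, had medians of 56.4, 93.6, 123.2 and 393.4, and Mlh3 had 3.13, 0, 0 and 0. Depth was near equal, at 0.607, 0.671, 0.604 and 0.629 M reads.

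Some genes of the other lists are given in the same cells. Tex15 had medians of 0, 14.6, 127.5 and 1996 RPM, Hfm1 38.9, 25.5, 49.4 and 442, and Tex11 27.3, 147.01, 300.3 and 570.8. Mnd1 had medians of 145.3, 155.4, 156.5 and 90.5, thus without such an order. Markers of meiotic stage differed with the number of genes, in unlike orders. Sycp3, a synaptonemal complex gene, had medians of 27.3, 46.1, 99.1 and 1504. Prdm9, which marks sites of breaks, had 0, 0, 0 and 317.5, and Rec8, a meiotic cohesin, 63.5, 81.7, 98.3 and 0. Sycp1 had 5.92, 31.2, 207.9 and 1931, and Hormad1 6.85, 102.8, 378.3 and 1483. Stra8 had 1874, 2601, 3931 and 1227, thus lowest in cells with all 6 genes. Rank correlations with the mean level of the 6 were taken over all XGFPintermediate cells, whose depth varied. The median was 0.44 for the 13 other meiotic recombination genes, from Mnd1 at -0.22 to Tex15 at 0.74. It was 0.02 for the 33 general repair genes, which ran from -0.44 to 0.51. Brca2 was at 0.42 and Mlh3 at -0.14.

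The X-linked allelic ratio, the deposited share of reads from the GFP-marked X averaged over genes of a cell, was set beside these groups without a test. In XGFPintermediate cells the median was 0.344 with at least 3 genes (58 cells), 0.331 with 1 or 2 and 0.332 with 0 (8 cells). In XGFPlow cells the medians were 0.339 (26 cells), 0.299 (42 of 53 cells with a ratio) and 0.324 (4 of 12 cells), and in XGFP+ constitutive cells 0.472, 0.481 and 0.478. In XGFPhigh cells the median was 0.415 with at least 3 genes (10 cells) against 0.474 in both other groups, and the ranges overlapped (0.301 to 0.487 against 0.324 to 0.681 in cells with 1 or 2).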

How the data were processed

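Bulk RNA was measured in 16 libraries and single cells in 552 wells. Per the labels and the methods of the study, bulk reads from stranded total RNA libraries were mapped with STAR to mm10 with strain SNPs masked, counted with HTSeq 0.6.1 and divided by DESeq2 1.16 size factors by the authors, and the deposited values are this signal, normalised read counts. They are whole multiples of 1 read in every library (tolerance 0.01 of a read), which gave 29.8 to 46.5 M reads on genes per library. The single-cell table deposited by the authors holds counts of reads per gene from SMART-seq libraries without molecular identifiers, and the allelic table deposited by the authors holds a fraction, the share of reads from the GFP-marked X. Strand use of the single-cell counting is not given in the sources used here. Spata22 overlaps Gm49340 on the same strand, which could split reads. Values were not corrected for length except where per kilobase is stated.

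Bulk values were tested with limma 3.58.1 (lmFit and eBayes with trend) on log2(normalised count + 1) over all 16 libraries with 4 group means, for 16281 genes with a mean above 10, with Benjamini-Hochberg adjustment and a threshold of 0.001. edgeR 4.0.16 and DESeq2 1.42.0 on the recovered reads were alternatives. The methods were tested on simulated data. Python 3.11.15, numpy 2.4.6, pandas 2.3.3, scipy 1.17.1, matplotlib 3.10.9 and R 4.3.3 were used. Cells were kept at 4000 genes, 10000 reads, at most 5% mitochondrial reads and natural-log normalised Dazl above 1 (per 10000 reads). Doublets were not removed by a caller. No pair of libraries or wells had identical values. Replicate numbers of XGFP+ and XGFP- PGCLC libraries paired them, from the data: deviations from the group means correlated at 0.253, 0.135, 0.200 and 0.307 for equal numbers, and the other group pairs did not all exceed 0.1. The members and lists were chosen with earlier results of these data known. Genes named from the lists were Brca1, Palb2, Psmc3ip, Mnd1, Hsf2bp, Tex11, Tex15 and Mcmdc2, and per comparison the largest called rise and fall of each list, except that some genes of the general repair list, also where this rule would name them, are counted but not reported here by name. Ccnb1ip1 in XGFP- against XGFP+ PGCLCs and Hfm1 in single cells were named after their values were seen. Levels of the stage markers Sycp3, Prdm9, Rec8, Sycp1, Hormad1 and Stra8 were also given after they were seen. Other pseudocounts, low-value filters, quantile normalisation, fits of 8 libraries, left-out libraries, the replicate block, detection thresholds and thinned depth were the alternatives. No wells shared a lane and index number. The bulk allelic table, in which 4 columns belong to no sample analysed here, was not used.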

Additional observations from a re-analysis of the deposited data

Results flagged for a closer look

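Mlh3 in XGFP- PGCLC replicate 3, at 1363 normalised read counts, stood apart from the other 3 libraries of its group by 0.863 of the range of the group, above Dixon's critical value for 4 samples. Over the 24 groups examined, chance flags about 1 in 20. The adjusted p for Mlh3 in XGFP- PGCLCs against EpiLCs stayed under 0.001 without this library.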

How the results depend on the processing

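Of 570 comparisons of a value for a gene with an alternative, 543 kept the direction and side of the threshold, 14 lost it, 13 gained it and 0 reversed. Members called in EpiLCs against ESCs were 1, and 2 with DESeq2, at a threshold of 0.05 or with the replicate number as a block, 0 when a log2 fold change above 1 was also required, and 1 to 2 with any library left out (2 without ESC replicate 1 or 3, through Brca2). In XGFP- PGCLCs against EpiLCs 5 were called, 3 with the fold requirement, and 4 to 5 with any library left out. XGFP+ PGCLCs against EpiLCs gave 2 to 3 of 3, and against ESCs 3 to 3 of 3. In XGFP- against XGFP+ PGCLCs 0 were called, 1 in the fit of the 8 libraries alone, 1 with DESeq2, 1 with the replicate block (Dmc1), 4 at 0.05, and 0 to 0 with any library left out. Mlh3 in XGFP- PGCLCs against EpiLCs was lost in the 8-library fit. With the block, no other call changed than those of Brca2 (EpiLCs against ESCs) and Dmc1.

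The share of cells with at least 3 of the 6 genes was 50.0% in XGFPintermediate and 28.6% in XGFPlow cells; it was 60.3% and 40.7% at 1 read, and 39.6% and 18.8% after thinning with 5 reads, the last a move of over 1.5 times. XGFP+ constitutive and XGFPhigh cells gave 6.58% and 8.47%, 13.2% and 10.2% at 1 read, and 7.69% and 7.08% after thinning. Single index sets gave 7.69% (lane 2), 66.7% and 60.7% (lane 3, sets 1 and 2) in XGFPintermediate, 41.7% (lane 2) in XGFPlow and 3.85% (lane 3, set 3) in XGFPhigh cells; the cause was not tested. The lane 2 exclusion was chosen after seeing the data. Counts per cell limit detection of genes near 5 reads, and populations of 1 sample allow no test.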

Other observations

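Outside the lists, the 5 genes most like the mean level of the 6 genes over 401 cells, of 11811 ranked, were Zcwpw1 (Spearman 0.69), Ddx4 (0.68), Tex101 (0.66), Slc25a31 (0.65) and Gm4969 (0.64). Over the 16 bulk libraries, the mean profile of the 4 measured meiosis-only genes was most like Gm13410 (Pearson 0.90), Tram2 (0.86), Gm12816 (0.86), Zbtb34 (0.82) and Gm5903 (0.82). The 2 sets of genes share no name, and cells and libraries differ in depth and group, so these values are a description only.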
